A study of Homo sapiens with 6 samples.

Results

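The report concerns 10 genes of bone morphogenetic protein (BMP) signalling, chosen by name: the ligand gene BMP4, the receptor genes ACVR1, BMPR1A and BMPR2, the inhibitory SMAD genes SMAD6 and SMAD7, and the target genes ID1, ID2, ID3 and ID4. They were 10 of the 58825 genes in the table, and each was found by its Ensembl identifier. RNA-seq was carried out on SKOV3, a human ovarian cancer cell line, in 2 groups of 3 libraries each, NC (transfection of a control siRNA) and si-EIF5A2 (transfection of an siRNA against EIF5A2), with RNA taken at 48 h. EIF5A2 encodes a translation factor, and the comparison asks which transcripts differ once it is knocked down. One cell line and one siRNA duplex were sequenced, and both groups were transfected. Nothing in the labels says that the 3 libraries of a group came from separate cultures, so the p-values measure the spread between these libraries, which may be technical.

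BMP ligands bind a complex of type I receptors, such as ACVR1 and BMPR1A, and type II receptors, such as BMPR2. The receptors phosphorylate SMAD1, SMAD5 and SMAD9, which join SMAD4 and enter the nucleus. The ID genes are the best known direct targets. ID proteins lack a DNA-binding region and bind the E proteins, basic helix-loop-helix (bHLH) transcription factors, which they keep from DNA. In many tumours ID proteins are linked to proliferation and to stem cell properties. SMAD6 and SMAD7 are also targets, and their products feed back to dampen the signal.

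In the si-EIF5A2 libraries ID1 RNA fell to 11.6% of the NC mean, ID3 to 19.3%, BMP4 to 35.4% and ACVR1 to 44.1%, and SMAD6, a rare RNA, had at least 20 estimated counts in each NC library and at most 4 in si-EIF5A2. SMAD7 rose 1.59-fold. BMPR1A, BMPR2 and ID2 did not meet the rule for a call that follows, and ID4 had too few counts to be tested. A gene was called when edgeR's quasi-likelihood test gave a Benjamini-Hochberg adjusted p under 0.05 over the 16208 genes tested and the fold change was over 1.5. By this rule 6 of the 9 members tested were called, against 24.6% of all genes tested. Of these members 5 were lower, where 13.6% of all genes were called lower, and 1 was higher, where 11.1% were called higher. The median log2 fold change was -1.18 over the 9 members and -0.01 over all genes tested. The members were chosen with earlier results of these data known. The comparisons with all genes therefore describe the members and are no test of them. In every one of the 9, the 3 si-EIF5A2 libraries lay wholly above or wholly below the 3 NC libraries, as did 51.2% of all genes tested. With 3 against 3 libraries no exact permutation p can be under 0.10. SMAD6 entered the test only through its counts in the NC libraries, so its place among the members that were tested and differed is partly set by the filter on low counts.

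The libraries held 46900204 to 74142267 estimated counts, and 3 fragments, taken as about 3.73 estimated counts each, were worth 0.153 to 0.238 CPM (the count divided by the TMM-adjusted library total, on one scale for all libraries). EIF5A2 itself stood at 27.8, 29.8 and 29.9 CPM with NC and at 2.76, 4.04 and 4.27 CPM with the knockdown, which gave a log2 fold change of -2.98 ± 0.18 (SE, edgeR's quasi-likelihood test, adjusted p = 1.6e-05). Of 8 epithelial and ovarian carcinoma markers 7 were tested, and their summed level lay between 1506 and 1673 CPM in NC and between 956 and 1168 CPM in si-EIF5A2. KRT8, KRT7 and PAX8 were called lower, and MUC1 was at 0 in 4 of 6 libraries. KRT18, ERBB2, EPCAM and KRT19 were not called, with log2 fold changes of -0.08, -0.02, -0.19 and -0.39. The blood cell markers PTPRC and CD3E were at 0 in all 6 libraries. The 5 endothelial markers summed to 358 to 403 CPM in NC and 273 to 293 CPM in si-EIF5A2, mostly TIE1, while KDR was at 0 in 4 of 6 libraries. The 6 fibroblast markers summed to 0.872 to 1.41 CPM in NC and 0.861 to 3.23 CPM in si-EIF5A2. Of these PDGFRB, with 19, 52 and 38 estimated counts in NC and 0, 0 and 4 in si-EIF5A2, was called lower (edgeR's quasi-likelihood test, adjusted p = 0.0222). COL1A1, with 84, 41 and 3 estimated counts in NC and 40, 59 and 95 in si-EIF5A2, was not called. COL1A2, COL3A1, DCN and LUM were at 0 in every NC library and too rare to test. Their only estimated counts were 34 of COL3A1 and 11 each of DCN and LUM in si-EIF5A2 3, and 4 of COL1A2 in si-EIF5A2 1. PDGFRB entered the test only through its counts in the NC libraries, so its call is partly set by the filter on low counts. The part of these marker differences in the results was not tested. The samples are bulk RNA, in which fewer cells of a kind and less RNA per cell cannot be told apart.

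**Figure D1:**
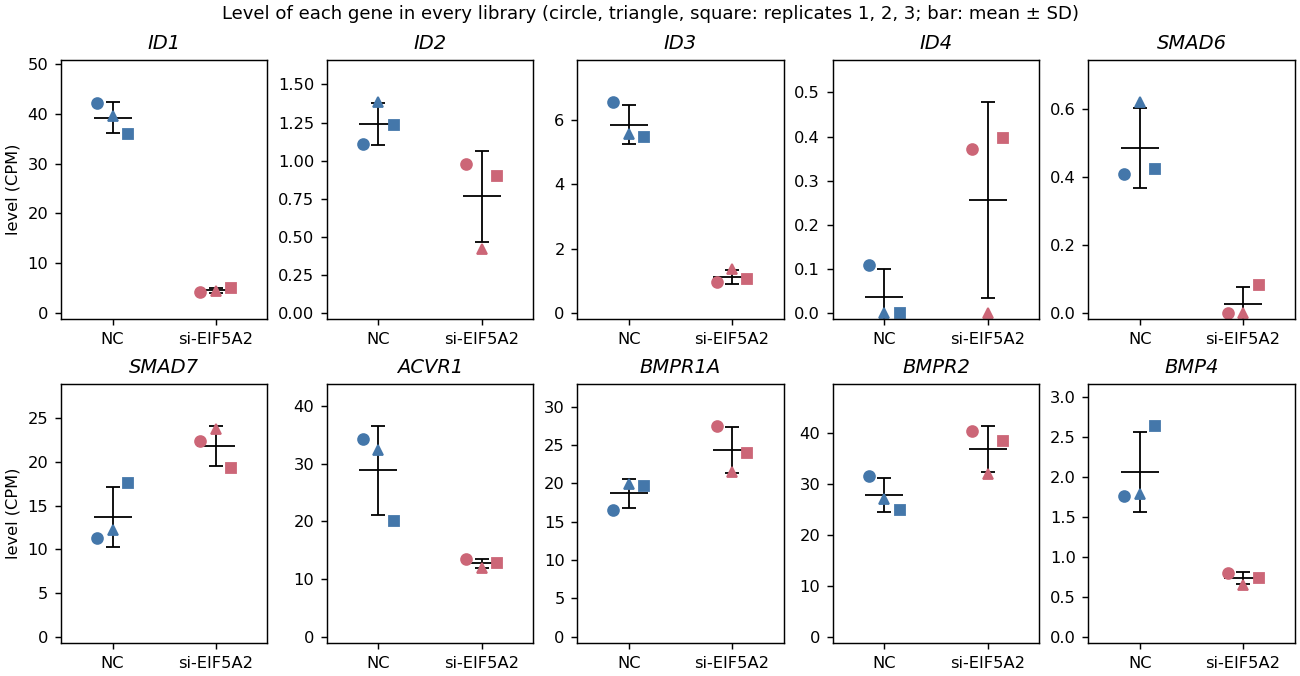
Level of each of the 10 genes in CPM (vertical axes from about 0, each gene on its own scale) in the 3 NC and 3 si-EIF5A2 libraries; points are libraries and the bars give the mean ± SD. ID1, ID3, ACVR1, BMP4 and SMAD6 lie lower in every si-EIF5A2 library than in any NC library, SMAD7 lies higher, and ID4 overlaps.

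BMP4 encodes a secreted ligand that acts in embryonic patterning and in the differentiation of many epithelia (GRCh38 chromosome 14, 53949736 to 53958761, minus strand). Its level was 1.75, 1.78 and 2.64 CPM in NC and 0.802, 0.651 and 0.730 CPM in si-EIF5A2. All 3 si-EIF5A2 libraries lay below the NC libraries, of which the third was the highest. The log2 fold change was -1.49 ± 0.30 (SE, edgeR's quasi-likelihood test, adjusted p = 0.00595). Leaving out each library in turn gave -1.60 to -1.29.

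Of 13 other BMP and GDF ligand genes listed, 3 were tested and 7 had no count in any library. BMP2, a close relative of BMP4 and an inducer of bone, moved the other way. It stood at 5.48, 4.43 and 5.38 CPM in NC and at 16.1, 13.1 and 15.5 CPM in si-EIF5A2. The groups were far apart, and the log2 fold change was 1.55 ± 0.15 (edgeR's quasi-likelihood test, adjusted p = 1.56e-04). The other two ligand genes tested, BMP6 and BMP8B, were not called, with log2 fold changes of -1.96 ± 0.67 and -0.04 ± 0.51.

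Levels of different genes were compared per length, as CPM per kilobase of exon. On this scale BMP2, BMP4, BMP6 and BMP8B, a set chosen after the values had been seen, summed to 2.92 ± 0.106 in NC and 4.67 ± 0.481 in si-EIF5A2 (SD, n = 3). The share of BMP2 in this sum was 48.5% ± 4.84 in NC and 88.6% ± 2.37 in si-EIF5A2. The share of BMP4 was 22.7% ± 4.68 and 5.06% ± 0.0221, and that of BMP6 was 24.8% ± 7.40 and 3.99% ± 2.94. So BMP2 RNA was the largest part of the summed ligand RNA in every library, and by a wider margin in si-EIF5A2. Since the set was chosen on its values, these shares are a description.

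ACVR1 encodes ALK2, a type I receptor kinase whose activating mutations cause fibrodysplasia ossificans progressiva (chromosome 2, 157736444 to 157875862, minus strand). Its RNA was 34.3, 32.3 and 20.1 CPM in NC and 13.5, 12.0 and 12.7 CPM in si-EIF5A2. The third NC library was well below the other two but still above all si-EIF5A2 libraries, which lay close together. The mean went from 28.9 ± 7.71 to 12.7 ± 0.742 CPM (SD, n = 3), a log2 fold change of -1.18 ± 0.20 (SE, edgeR's quasi-likelihood test, adjusted p = 0.00259). It was -1.40 without the third NC library and -1.04 without the first.

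BMPR1A encodes ALK3, the type I receptor most used by BMP2 and BMP4 (chromosome 10, 86756601 to 86932838, plus strand). It stood at 16.5, 19.99 and 19.7 CPM in NC and at 27.5, 21.5 and 24.0 CPM in si-EIF5A2. The groups did not overlap, but the nearest libraries were close. The log2 fold change was 0.38 ± 0.13, with a 95% interval of 0.08 to 0.68, and BMPR1A was not called (edgeR's quasi-likelihood test, adjusted p = 0.054).

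BMPR2 encodes the main type II BMP receptor, whose loss-of-function mutations cause heritable pulmonary arterial hypertension (chromosome 2, 202376936 to 202567751, plus strand). Its RNA was 31.4, 27.0 and 24.9 CPM in NC and 40.4, 31.8 and 38.4 CPM in si-EIF5A2. The second si-EIF5A2 library was only just above the first NC library. The log2 fold change was 0.41 ± 0.13, with a 95% interval of 0.11 to 0.71. It passed the adjusted p alone (edgeR's quasi-likelihood test, 0.0398) and stayed under the 1.5-fold limit.

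The 3 receptor genes together summed to 11.2 ± 2.07 CPM per kilobase in NC and 8.42 ± 0.815 in si-EIF5A2 (SD, n = 3, exact permutation test, 2-sided, p = 0.2, adjusted p = 0.225), and the groups overlapped. Their make-up differed more than their sum. ACVR1 held 67.8%, 66.8% and 56.9% of the sum in NC and 36.8%, 39.7% and 37.5% in si-EIF5A2. BMPR2 went from a mean share of 21.1% to 36.7% and BMPR1A from 15.1% to 25.3%. The groups did not overlap for any of the 3 shares, and each gave the smallest p that the exact permutation test allows here (2-sided, p = 0.1, Benjamini-Hochberg adjusted p = 0.129 over the 9 shares and sums of the receptor and ID genes). In NC the order of the per-length levels was ACVR1 (7.24 ± 1.93 CPM per kilobase), BMPR2 (2.34 ± 0.280) and BMPR1A (1.64 ± 0.169). In si-EIF5A2 ACVR1 (3.19 ± 0.186) and BMPR2 (3.10 ± 0.377) did not differ beyond their spread, and BMPR1A (2.13 ± 0.266) came last. These orders hold per exon length only. The coding lengths are 1527 bases for ACVR1, 1596 for BMPR1A and 3121 for BMPR2. Per coding length BMPR1A stood above BMPR2 in both groups. In si-EIF5A2 BMPR1A was then the highest and ACVR1 the lowest, while ACVR1 stayed the highest in NC.

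**Figure D2:**
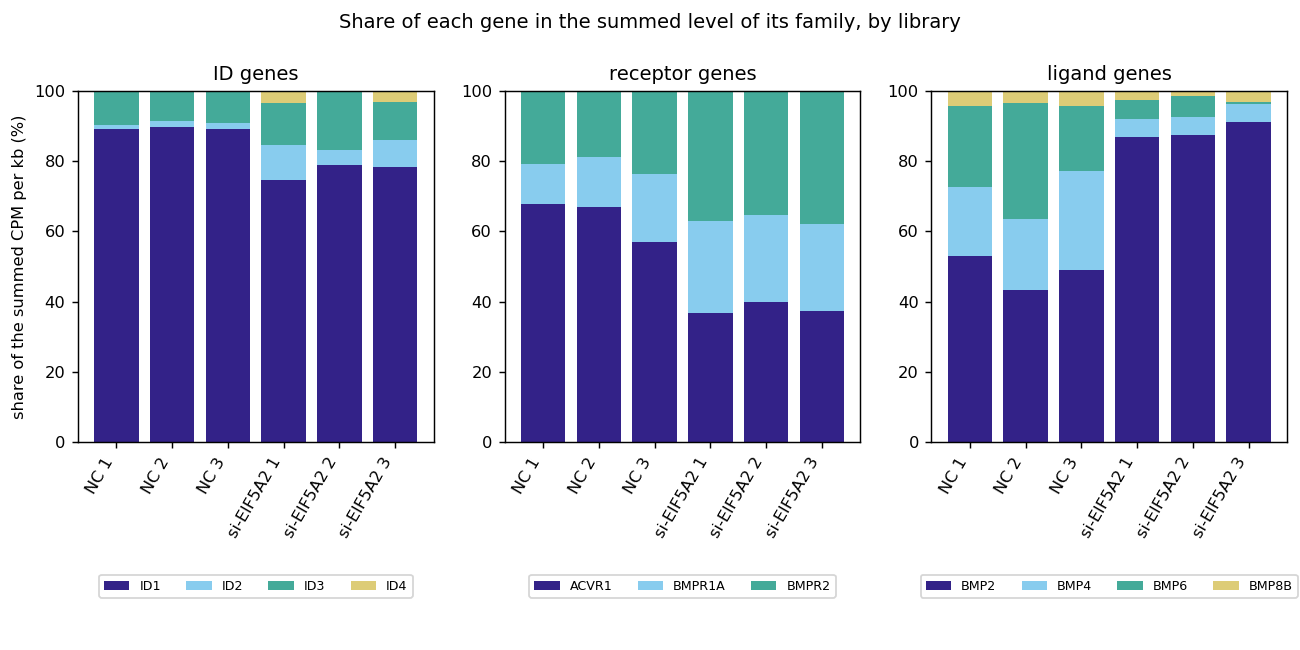
Stacked bars give each gene's share (percent, vertical axis) of the summed CPM per kilobase of exon within the ID genes, the receptor genes and the ligand genes, one bar per library. ACVR1 takes 56.9% to 67.8% of the receptor sum in NC and 36.8% to 39.7% in si-EIF5A2, ID1 takes the largest share of the ID sum in every library, and BMP2 widens its share of the ligand sum.

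Among the other receptor genes listed, all 4 were tested and 1 was called (25%, near the 24.6% of all genes tested). ACVRL1 encodes ALK1, the type I receptor for BMP9 and BMP10 best known from endothelium. It was at 4.0, 2.51 and 3.08 CPM in NC and at 0.763, 0.843 and 0.792 CPM in si-EIF5A2. The si-EIF5A2 libraries lay close together below all NC libraries, and the log2 fold change was -2.00 ± 0.27 (edgeR's quasi-likelihood test, adjusted p = 7.54e-04). Of the 5 endothelial markers, EGFL7 was called lower (log2 fold change -0.89). TIE1 (-0.35) stayed under the 1.5-fold limit, VWF (-0.52) and PECAM1 (means of 1.87 and 0.318 CPM) were not called, and KDR was at or near 0.

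Of 7 co-receptor and pseudoreceptor genes 5 were tested and 3 were called, against 24.6% of all genes tested. BAMBI, a pseudoreceptor without a kinase domain that blocks signalling, was at 10.5, 10.9 and 10.5 CPM in NC and at 20.7, 20.1 and 20.4 CPM in si-EIF5A2. The libraries within a group were almost level, and the log2 fold change was 0.94 ± 0.10 (edgeR's quasi-likelihood test, adjusted p = 2.44e-04). RGMB, a BMP co-receptor, rose by 0.94 ± 0.07 on the log2 scale. Its exons overlap an antisense gene over 40.2% of their length, and without strand the reads of the pair cannot be told apart. TGFBR3, the betaglycan co-receptor, fell by 1.05 ± 0.18 on that scale. ENG, the endoglin co-receptor, named after its value was seen, fell from 310 ± 39.5 to 222 ± 7.50 CPM (adjusted p = 0.00645, edgeR's quasi-likelihood test), a change under the 1.5-fold limit, and an antisense gene overlaps 7.95% of its exon length.

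The antisense strand of si-EIF5A2 pairs without a mismatch with the coding sequence of EIF5A2, and 3 of the 9 members tested hold in their 3′ UTR the 7 bases that pair with bases 2 to 8 of that strand. The sequences are shown because 3 receptor genes of the set hold these 7 bases, in capitals below, and 1 of these genes was called lower while the other two were not called. They are sense strands of GENCODE release 29 transcripts, 5′ to 3′, with GRCh38 positions of the whole site for EIF5A2 and of the capitals for the others.
EIF5A2 target, chr3:170894346-170894364, minus strand, exon 4: ggatcttaaacTGCCAGAa
ACVR1, chr2:157736528-157736534, minus strand, exon 11: ttaaactcTGCCAGAaaaaaata
BMPR1A, chr10:86928621-86928627, plus strand, exon 13: aattctatTGCCAGAcattatca
BMPR2 first match, chr2:202562204-202562210, plus strand, exon 12: tcttttccTGCCAGAagagttat
BMPR2 second match, chr2:202562319-202562325, plus strand, exon 12: aattaataTGCCAGAttaaaata

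At ACVR1 and at the first BMPR2 match 9 bases in a row pair with the antisense strand, and at the other two matches 7 do. ACVR1 fell, BMPR1A was not called, and BMPR2 had a log2 fold change of 0.41. No match to TGCCAGA on the sense strand was found in the annotated 3′ UTR of ID1, ID2, ID3, ID4, SMAD6, SMAD7 or BMP4. Of all genes tested with a 3′ UTR, 19.9% hold a match, and 25.5% of the tested genes on the pathway list do. A match is a string of letters and was not tested as a site of action.

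SMAD1, SMAD5 and SMAD9, which carry the BMP signal, and their partner SMAD4 were not called. SMAD1 had a log2 fold change of 0.18 ± 0.13, SMAD5 of 0.25 ± 0.12 and SMAD9 of -0.91 ± 0.42. SMAD4, which is shared with TGF-beta signalling, was at 22.3, 27.3 and 22.6 CPM in NC and at 35.1, 29.9 and 31.1 CPM in si-EIF5A2, a log2 fold change of 0.41 ± 0.12 that passed the adjusted p alone (0.0252, edgeR's quasi-likelihood test). Its exons share 7.37% of their length with another gene on the same strand.

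SMAD6 encodes an inhibitory SMAD that acts mainly on BMP signals (chromosome 15, 66702228 to 66782848, plus strand). Its estimated counts were 30, 44 and 20 in NC and 0, 0 and 4 in si-EIF5A2. All NC libraries had reads, and only the third si-EIF5A2 library did. Divided by 3.73 and rounded in each library this is about 25 fragments against 1, a ratio of 0.0505 with a 95% interval of 0.00123 to 0.308 that covers counting error only. The fitted log2 fold change was -4.07 ± 1.15 (edgeR's quasi-likelihood test, adjusted p = 0.0255), and its size depends on how zeros are handled. The call was lost when any one of NC 1, NC 2, NC 3, si-EIF5A2 1 or si-EIF5A2 2 was left out, with fits of -4.17, -3.84, -4.16, -3.52 and -3.50 and adjusted p of 0.0628 to 0.0968, and without si-EIF5A2 3 the fit gave -7.85.

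The SMAD6 promoter is shown because its window was the only one among the members' windows to hold GTCTAGAC, a palindrome of the SMAD box. This string was searched for after the values were known, and only within these windows. The window is RefSeq's on GRCh38.p14, from 250 bases before to 50 bases after the start, and the motif, in capitals, begins 12 bases before the start.
SMAD6 promoter, chr15:66701986-66702285, plus strand: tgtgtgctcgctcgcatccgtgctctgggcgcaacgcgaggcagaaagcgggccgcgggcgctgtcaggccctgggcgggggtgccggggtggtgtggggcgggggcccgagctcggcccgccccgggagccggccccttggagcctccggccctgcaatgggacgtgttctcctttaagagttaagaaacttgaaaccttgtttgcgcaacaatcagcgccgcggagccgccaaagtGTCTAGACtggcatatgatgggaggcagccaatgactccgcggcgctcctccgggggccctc

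All 10 members matched the promoter table, with 16 windows. GTCTAGAC, its own reverse complement, was in 1 of these and in 0.202% of 35116 promoters. GGCGCC, a GC-rich SMAD1 and SMAD5 motif and also its own reverse complement, was in 3 windows (18.8%), of ACVR1, BMPR2 and BMP4, and in 19.2% of all promoters. No window of an ID gene or of SMAD7 held either string, which says only that these letters are not within 250 bases before the starts used. The SMAD7 windows reach up to position 48951215, short of the gene's annotated 5′ end at 48952052.

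SMAD7 encodes the inhibitory SMAD that acts on both BMP and TGF-beta receptors (chromosome 18, 48919853 to 48952052, minus strand). It was at 11.3, 12.2 and 17.6 CPM in NC and at 22.4, 23.8 and 19.3 CPM in si-EIF5A2. The third NC library and the third si-EIF5A2 library were near each other, and the remaining libraries were well separated. The mean rose from 13.7 ± 3.44 to 21.8 ± 2.31 CPM (SD, n = 3), a log2 fold change of 0.67 ± 0.18 (SE, edgeR's quasi-likelihood test, adjusted p = 0.0225). The call was lost without NC 1 (log2 fold change 0.55, adjusted p = 0.0689), without NC 2 (0.60, 0.0779), without si-EIF5A2 1 (0.65, 0.0676) and without si-EIF5A2 2 (0.61, 0.0733), by the same edgeR test. The inhibitory SMAD genes were thus called in opposite directions, each in a call that leaving out 1 of several libraries ended.

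ID1 encodes the ID protein best known as an immediate target of BMP receptors (chromosome 20, 31605283 to 31606515, plus strand). Its RNA was 42.1, 39.6 and 36.0 CPM in NC and 4.13, 4.41 and 5.13 CPM in si-EIF5A2. The spread within each group was small against the distance between them. The mean fell from 39.2 ± 3.10 to 4.55 ± 0.517 CPM (SD, n = 3), a log2 fold change of -3.11 ± 0.13 with a 95% interval of -3.41 to -2.81 (edgeR's quasi-likelihood test, adjusted p = 5.17e-06). In the order of all 16208 genes by log2 fold change, ID1 was number 155 from the lowest. Leaving out each library in turn gave -3.21 to -3.05.

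ID3 encodes an ID protein often expressed alongside ID1 (chromosome 1, 23557918 to 23559794, minus strand). It stood at 6.54, 5.55 and 5.44 CPM in NC and at 0.958, 1.38 and 1.04 CPM in si-EIF5A2. Each si-EIF5A2 library was well under each NC library. The log2 fold change was -2.37 ± 0.22, with a 95% interval of -2.88 to -1.86 (edgeR's quasi-likelihood test, adjusted p = 1.25e-04).

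ID2, which encodes an ID protein that also acts in the development of lymphoid cells (chromosome 2, 8678845 to 8684453, plus strand), was rare. It was at 1.11, 1.38 and 1.23 CPM in NC and at 0.978, 0.421 and 0.896 CPM in si-EIF5A2. The groups did not overlap, but the first si-EIF5A2 library was close to the NC libraries. The log2 fold change of -0.70 ± 0.40 had a 95% interval of -1.63 to 0.23 (edgeR's quasi-likelihood test, adjusted p = 0.22), so neither no change nor a fall as large as 1.5-fold lay outside it. ID2 shares 1.72% of its exon length with the antisense gene ID2-AS1.

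ID4 encodes the ID protein known from neural and mammary development (chromosome 6, 19837386 to 19840684, plus strand), and it was the one member left out by the filter on low counts. Its estimated counts were 8, 0 and 0 in NC and 19, 0 and 19 in si-EIF5A2. At least 1 library of each group was at 0, and the groups overlapped. On the same scale this is about 2 fragments against 10, a ratio of 6.31 with a 95% interval of 1.34 to 59.2 for counting error only. Fitted without the filter, its log2 fold change was 2.65 ± 1.84 (edgeR's quasi-likelihood test, adjusted p = 0.361).

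Per length, the 4 ID genes summed to 35.7 ± 2.81 CPM per kilobase in NC and 4.78 ± 0.467 in si-EIF5A2 (SD, n = 3; exact permutation test, 2-sided, p = 0.1, the smallest possible, adjusted p = 0.129). In NC the order was ID1 (31.8 ± 2.52), ID3 (3.25 ± 0.335), ID2 (0.563 ± 0.0621) and ID4 (0.0156 ± 0.0270). In si-EIF5A2 the order was the same, with ID1 at 3.69 ± 0.419, ID3 at 0.627 ± 0.124, ID2 at 0.347 ± 0.136 and ID4 at 0.109 ± 0.0947 CPM per kilobase. In either group the libraries of neighbouring genes in this order did not overlap. ID1 kept the largest share, but that share went from 89.3% ± 0.335 to 77.3% ± 2.26. The ID3 share went from 9.11% to 13.2% and the ID2 share from 1.59% to 7.25%. For each of these 3 shares the groups did not overlap (exact permutation test, 2-sided, p = 0.1, adjusted p = 0.129), and for ID4 they did (p = 0.4, adjusted p = 0.4).

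**Figure D3:**
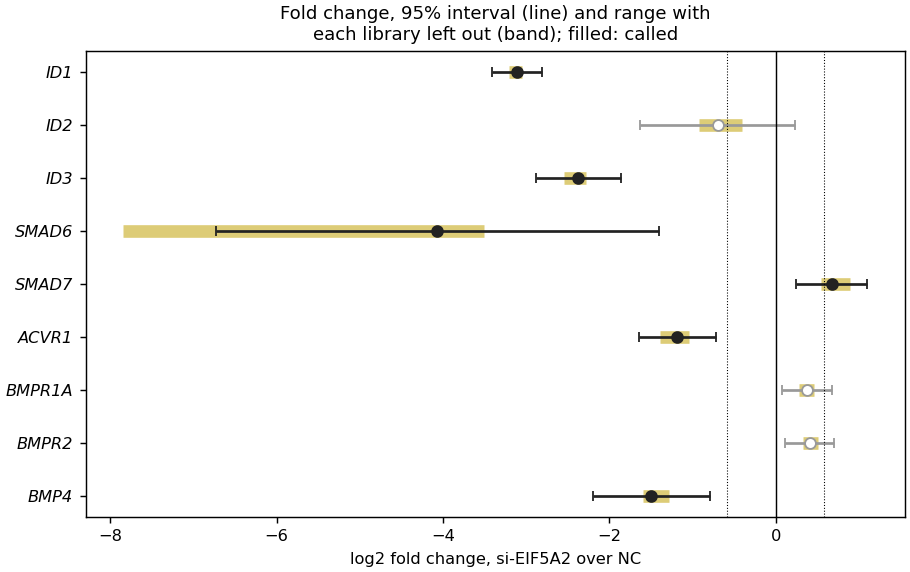
Log2 fold change of si-EIF5A2 over NC (horizontal axis) for the 9 members tested; points are the edgeR fit with its 95% interval, and the wide band of each gene spans the values with 1 library left out. The interval of ID1 is -3.41 to -2.81, that of ID2 includes 0, and SMAD6 has the widest interval, -6.73 to -1.41.

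ID proteins act by binding E proteins, so genes of the bHLH factors were listed as well. Of 18 genes 7 were tested, 9 had no count in any library and 3 were called (42.9% of those tested, against 24.6% of all genes), or 1 by the rule of the methods. TCF3, which encodes the E proteins E12 and E47, was at 26.0, 21.3 and 22.0 CPM in NC and at 56.4, 49.8 and 49.8 CPM in si-EIF5A2. Every si-EIF5A2 library was far above every NC library, and the log2 fold change was 1.17 ± 0.11 (edgeR's quasi-likelihood test, adjusted p = 1.36e-04). The other E protein genes, TCF12 (-0.39 ± 0.17) and TCF4 (-0.37 ± 0.30), were not called.

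TWIST2 and TWIST1 encode bHLH factors that act in mesenchyme. TWIST2 was at 48.7, 44.1 and 37.1 CPM in NC and at 22.0, 31.8 and 21.6 CPM in si-EIF5A2, a log2 fold change of -0.78 ± 0.18 (edgeR's quasi-likelihood test, adjusted p = 0.0103). TWIST1 had -0.63 ± 0.19 (adjusted p = 0.0341, the same edgeR test). Without NC 1, NC 2, NC 3, si-EIF5A2 2 or si-EIF5A2 3 the TWIST1 call was lost, at -0.66, -0.68, -0.56, -0.56 and -0.56. An antisense gene overlaps 6.94% of its exon length.

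Over the whole list of other BMP pathway genes, 51 of 73 were tested, 18 had no count, and 12 were called, 4 lower and 8 higher. The direction depends on the rule: DESeq2 gave 7 lower and 8 higher, and the rule of the methods (unadjusted p under 0.05 and over 2-fold) gave 7 lower and 3 higher. The 12 calls are 23.5% of the genes tested, near the 24.6% of all genes, and the median log2 fold change was 0.25. By the adjusted p alone 21 passed (41.2%, against 36.9% of all genes tested), 16 of them higher (31.4%, against 18.0%). These counts describe the list, and no test of the list was made.

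**Figure D4:**
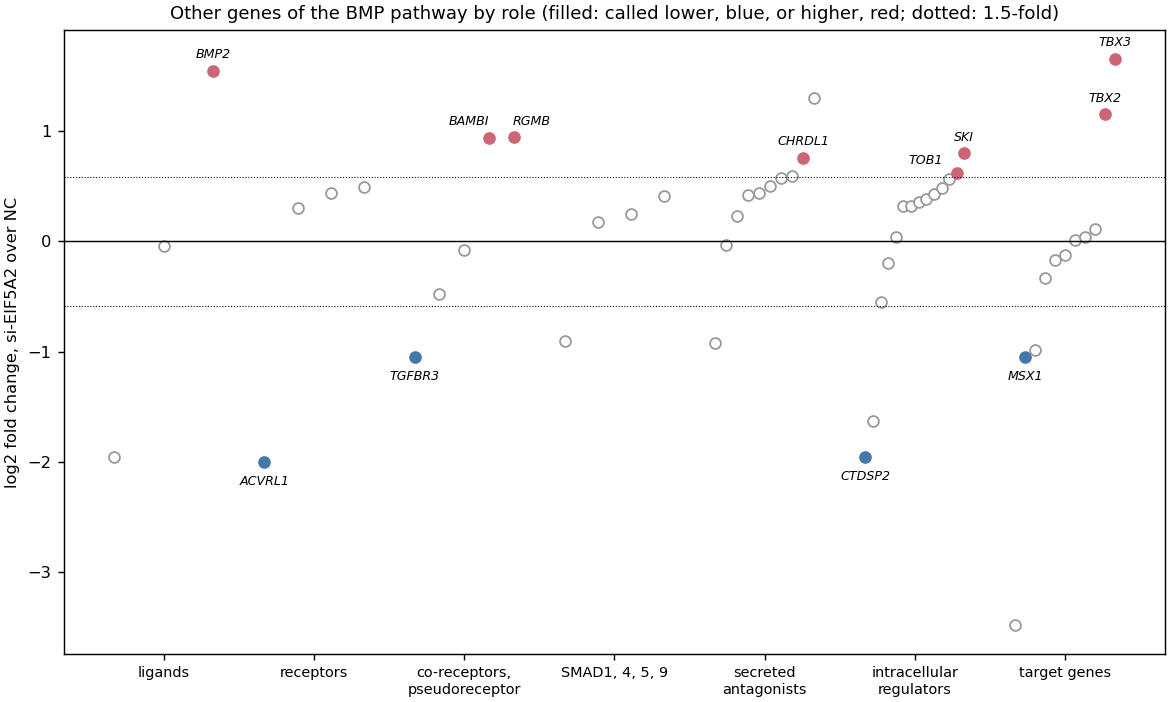
Log2 fold change of si-EIF5A2 over NC (vertical axis) for the 51 tested genes of the BMP pathway list, grouped by role along the horizontal axis; each point is a gene, filled where called, and dotted lines mark 1.5-fold. BMP2, BAMBI, RGMB, CHRDL1, SKI, TOB1, TBX2 and TBX3 lie above the upper line as called genes, and ACVRL1, TGFBR3, CTDSP2 and MSX1 below the lower one.

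Of 16 secreted antagonist genes 10 were tested and 6 had no count. CHRDL1, which encodes a chordin-like protein that binds BMPs, rose from 48.9 ± 4.42 to 82.6 ± 10.2 CPM (log2 fold change 0.76 ± 0.11, edgeR's quasi-likelihood test, adjusted p = 0.00141). The remaining 9 were not called, so 10% of those tested were called, against 24.6% of all genes tested. By the adjusted p alone 2 were higher (20%, against 18.0% of all genes tested).

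All 14 intracellular regulators were tested. By the adjusted p alone 8 were higher and 1 lower, that is 57.1% higher against 18.0% of all genes tested. With the fold limit 3 were called (21.4%, against 24.6%). CTDSP2, a phosphatase gene whose product removes phosphate from SMADs, was at 226, 205 and 215 CPM in NC and at 52.9, 57.6 and 55.9 CPM in si-EIF5A2. The groups were far apart, with a log2 fold change of -1.96 ± 0.08 (edgeR's quasi-likelihood test, adjusted p = 4.92e-06). SKI, a SMAD corepressor, rose by 0.80 ± 0.10 and TOB1, an antiproliferative protein that binds SMADs, by 0.62 ± 0.11 on the log2 scale. Without the first si-EIF5A2 library TOB1 was under the fold limit, at 0.52. An antisense gene overlaps 11.1% of the TOB1 exon length.

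Of 15 further target genes of BMP signals 11 were tested and 3 were called, in both directions. That is 27.3%, near the 24.6% of all genes tested. MSX1, a homeobox gene induced by BMPs in the embryo, went from 31.5 ± 3.94 to 15.3 ± 1.22 CPM (log2 fold change -1.05 ± 0.12, edgeR's quasi-likelihood test, adjusted p = 4.05e-04). TBX3, a T-box repressor, was at 21.4, 38.1 and 29.5 CPM in NC and at 98.9, 88.7 and 93.7 CPM in si-EIF5A2. The NC libraries varied more than the si-EIF5A2 libraries and all lay well below them. The log2 fold change was 1.66 ± 0.20 (edgeR's quasi-likelihood test, adjusted p = 7.22e-04), and its relative TBX2 rose by 1.15 ± 0.17. ATOH8, named after its value was seen, was not called. It had about 62 fragments in NC and 4 in si-EIF5A2, a ratio of 0.0814 with a counting interval of 0.0215 to 0.219, and a fitted adjusted p of 0.0725 by the edgeR test. Its interval covers counting error only. ATOH8 entered the test only through its counts in the NC libraries and was picked on its value, so these values describe it and are no test.

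For each called member, the 3 genes with the most similar profile were found among the other genes tested with a mean of at least 5 CPM, by the root-mean-square distance of centred log2 CPM over the 6 libraries. For ID1 these were MKI67 (0.135), which encodes the proliferation marker Ki-67, ARHGDIB (0.136) and AKR1C3 (0.155). For ID3 they were CKS1B (0.103), TK1 (0.107) and ABI3 (0.118), and for ACVR1 MYRF (0.0574), TRERF1 (0.0835) and IMPACT (0.114). BMP4 lay nearest to PAX6 (0.117), INPP5F and PHACTR1, and SMAD7 nearest to CCDC113 (0.0829), ZNF251 and ZNF275. SMAD6 had no close neighbour, with NCAPH, SH3PXD2B and SPC25 at 0.365 to 0.408. All 6 libraries enter these distances, and the difference between the groups is the larger part of most profiles, so they describe likeness and nothing else.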

How the data were processed

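The authors sequenced RNA of SKOV3 cells and deposited estimated counts per gene, made with StringTie and given as whole numbers without normalization. Low values piled up at multiples of about 3.73: of all values from 1 to 20, 42.6% lay on such a multiple rounded up, where 25% of these whole numbers do. The step was chosen as the one these same values sat on best, so the 42.6% describes the values and is no test of the step. It was taken as the worth of 1 fragment, so fragment numbers are estimates, rounded in each library. The submitters' processing notes name Bowtie 0.12.2 and the mouse builds mm8 and mm9, which cannot belong to human Ensembl identifiers. The build of the table is not given in the sources used here. Positions and lengths came from GENCODE release 29 (GRCh38), which held 58552 of 58825 identifiers, and promoters from RefSeq. The siRNA letters were read from a page image, and only the antisense run that pairs with EIF5A2 without a mismatch was used for the seed.

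Columns were matched to samples by name, with 0 left over. Fits used edgeR 4.0.16 in R 4.3.3 with filterByExpr, TMM (factors 0.985 to 1.014), robust quasi-likelihood and condition as the only term, over 16208 of the 25627 genes with a count. Benjamini-Hochberg adjustment covered all genes tested. Errors are SE of log2 fold changes or SD of CPM on TMM library sizes. Intervals of log2 fold changes come from the edgeR fit. Intervals of fragment ratios and floors of 3 fragments cover counting error only. Shares were compared by exact permutation of the 6 libraries.

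Alternatives were DESeq2 1.42.0, RLE, library size only, no filter, at least 10 counts in every library, a replicate block, leaving out each library, counts divided by their step, the methods' own rule (unadjusted p under 0.05 and over 2-fold) and no fold limit. The fit was tested on simulated data. Every member was named, with every called gene of the pathway and bHLH lists, SMAD1, SMAD4, SMAD5, SMAD9, EIF5A2 and the 3 nearest profiles of each called member. Members and lists were chosen with earlier results of these data known.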

Additional observations from a re-analysis of the deposited data

How the results depend on the processing

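Over the 10 members 6 were called with DESeq2, RLE, library size only and no filter, 5 with at least 10 counts in every library, with counts divided by their step or with the threshold of the methods, 7 with no fold limit, and 4 to 6 with 1 library left out. No direction was reversed under any of the alternatives run, and 17 of 362 values of single genes lost their call: those of SMAD6, SMAD7, TWIST1 and TOB1. SMAD6 was removed by the filter of 10 counts and by that on divided counts. The pathway list had 21 calls without a fold limit against 12, and the bHLH list 1 call with the threshold of the methods against 3. Over all genes 3992 were called, 2370 by the rule of the methods and 5974 without a fold limit.

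Replicate numbers did not pair the libraries: deviations of same-numbered libraries had correlations of -0.0244, 0.00522 and -0.00269. With the replicate block 3731 genes, 5 members, 14 pathway genes and 2 bHLH genes were called, and SMAD6 (adjusted p = 0.0563, edgeR) and TWIST1 (0.0666, edgeR) lost their calls. The share of ID1 differed by -12.0 points, -17.9 per coding length, and that of ACVR1 by -25.8 and -23.6. Depth limits the rare genes, among them ID4, SMAD6 and ATOH8, whose groups hold at most about 62 fragments. BMP4 and ID2 were also rare, with 41, 34 and 35 and with 50, 22 and 43 estimated counts in the si-EIF5A2 libraries.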
